A study of Mus musculus with 2 samples.

Results

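The proteasome genes of mouse erythroid progenitor cells were measured in total RNA. They were chosen by name, as the protein-coding genes whose symbol starts with Psma, Psmb, Psmc, Psmd, Psme, Psmf or Psmg followed by a digit, a rule that uses no measured value. This gave 50 genes of the 21461 nuclear protein-coding genes in the tables. One of them, Psmc3ip, encodes a factor of meiotic recombination and no proteasome subunit, so 49 of the 50 belong to the proteasome, its regulators or its assembly factors. The cells, labelled CFU-Ery, are the dividing precursors of red blood cells. They were primary cells of adult C57BL/6J male mice, 5 to 6 weeks of age, and a protocol linked in the labels is for isolating progenitors out of bone marrow. The design has a single group, of biological replicates 1 and 2, with 1 ng of RNA and spike-in transcripts in each of the 2 libraries, and no treatment, genotype or other group to compare. Both libraries carry the same donor record and the labels do not say whether different animals were used, so the spread may be technical. The smallest p of an exact sign-flip test over 2 libraries is 0.5, and therefore no test was made and values are given per library or as mean ± SD (n = 2).

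The proteasome is the protease that degrades most short-lived and damaged proteins marked with ubiquitin. Its barrel-shaped core is built of rings of alpha subunits, which gate the entrance, and rings of beta subunits, some of which cut peptide bonds inside. A regulatory cap binds ubiquitin, removes it and uses a ring of ATPases to unfold the protein and feed it into the core. Dedicated chaperones help assemble core and cap, and other activators (PA28 and PA200) can take the place of a cap. Cells that respond to interferon, and many blood cells, exchange the cutting beta subunits for the immunoproteasome forms, which change the peptides made for MHC class I. In maturing red cells, proteasomes take part in the removal of proteins as the cell is remodelled.

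The total expected count, an estimate of reads per gene that need not be whole, was 143491647 in replicate 1 and 110634458 in replicate 2. Mitochondrial rRNA took 81.2% of it in replicate 1 and 79.0% in replicate 2, which left 4717790 and 4093202 counts on nuclear protein-coding genes and 17156 and 15701 on the proteasome genes. TPM is a transcript level per length, scaled to a fixed total over every row of a table, so most nuclear genes have low values here. Rescaled to the same total over nuclear protein-coding genes only, 1 TPM becomes 43.1 in replicate 1 and 37.0 in replicate 2. Levels below are deposited TPM unless called rescaled, and a gene at equal rescaled level therefore stands somewhat higher in replicate 2 on the deposited scale. The erythroid label was checked against 10 erythroid marker genes, all of which reached 1 TPM in both libraries, with a summed level of 388 TPM in replicate 1 and 447 TPM in replicate 2. Slc4a1, the band 3 anion exchanger, and Alas2, the first enzyme of haem synthesis in red cells, led them at 136 ± 17.5 and 69.9 ± 11.2 TPM. Markers of granulocytes and monocytes were also present, 13 of 14 at 1 TPM or more, with a summed level of 607 TPM in replicate 1 and 814 TPM in replicate 2. S100a9 and S100a8, calcium-binding proteins of neutrophils, stood at 211 ± 54.3 and 204 ± 46.9 TPM. Macrophage markers (7 of 10 at 1 TPM or more, 17.6 and 21.4 TPM summed in replicates 1 and 2) and B lymphoid markers (3 of 8, 17.2 and 19.0 TPM) were lower, and T and NK lymphoid markers (1 of 8, 3.03 and 3.90 TPM) lowest, with Cd8a at 0 in both libraries. The part of these cells in the levels below was not tested. As bulk RNA was measured, fewer cells of a type and less RNA per cell cannot be told apart.

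Nearly all proteasome genes were expressed, and most were at moderate levels. Of the 50 genes, 48 had a count in both libraries, against 49.8% of all nuclear protein-coding genes. At 1 TPM or more in both libraries there were 32 members, against 12.6% of all, and at 1 or more rescaled TPM there were 48, against 44.6%. Their median was 1.67 TPM in replicate 1 and 2.06 TPM in replicate 2, beside 0.01 and 0.02 TPM for all nuclear protein-coding genes. On the rescaled scale the median was 71.8 in replicate 1 and 76.2 in replicate 2. Together the proteasome genes held 0.433% of nuclear protein-coding TPM in replicate 1 and 0.441% in replicate 2. For comparison, the median of 79 cytosolic ribosomal protein genes, which encode another large complex, was 15.1 TPM in replicate 1 and 19.6 TPM in replicate 2. The median of 37 UBE2 genes, which encode ubiquitin-conjugating enzymes upstream of the proteasome, was 1.09 and 0.91 TPM in replicates 1 and 2. The proteasome genes thus lay above most nuclear genes and below the ribosomal protein genes, while UBE2 genes had a median nearer to theirs.

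**Figure D1:**
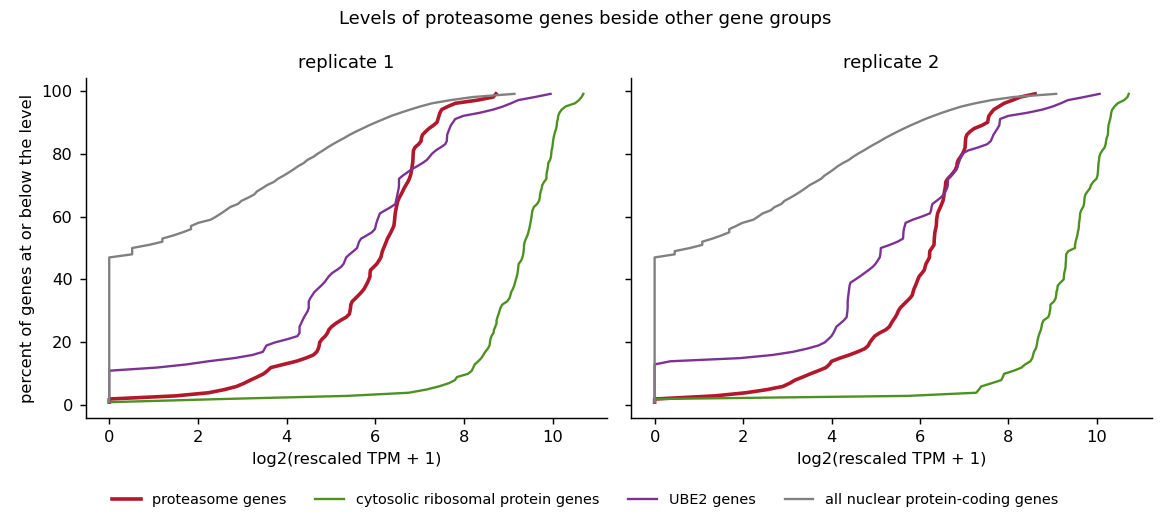
Cumulative curves of the levels of 50 proteasome genes, 79 cytosolic ribosomal protein genes, 37 UBE2 genes and 21461 nuclear protein-coding genes, in replicate 1 (left) and replicate 2 (right). The horizontal axis is log2(rescaled TPM + 1) and the vertical axis the percent of genes at or below that level. The proteasome curve rises steeply between the curves of all genes and of ribosomal protein genes over most of its length in both libraries.

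The 7 alpha subunit genes Psma1 to Psma7, which form the outer rings of the core, all reached 1 TPM in both libraries. Psma1 had 4.98 TPM in replicate 1 and 4.97 TPM in replicate 2, Psma2 had 4.10 and 5.42 TPM, and Psma3 had 3.85 and 6.37 TPM. These were the highest of the ring. The lowest was Psma7, with 1.34 TPM in replicate 1 and 1.82 TPM in replicate 2, and Psma4, Psma5 and Psma6 lay between, with means of 2.22 to 2.78 TPM. The 7 genes thus spanned a 3.23-fold range of mean TPM; in the core itself each alpha subunit is present in the same number. The order was partly different in transcripts annotated protein_coding alone, where Psma1 and Psma2 stayed highest. Psma3 then had 2.08 TPM in replicate 1 and 1.87 TPM in replicate 2, not above Psma4 (2.08 and 2.84 TPM). Psma6 had 0.56 and 1.98 TPM, below Psma7 (1.28 and 1.81 TPM) in replicate 1 only. Psma8, the testis form of the alpha-4 subunit, had 0 counts in both libraries, which allows up to 3 counts in each.

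Among the structural beta subunit genes, which complete the inner rings without cutting, Psmb4 was highest, with 3.97 TPM in replicate 1 and 5.04 TPM in replicate 2. Psmb1 had 2.32 and 2.50 TPM, and Psmb2 had 2.09 and 2.16 TPM, in replicates 1 and 2. In transcripts annotated protein_coding alone Psmb4 had 2.35 and 2.29 TPM, near Psmb1, which stayed at 2.32 and 2.50 TPM. Psmb3 had 1.21 TPM in replicate 1 and 0.57 TPM in replicate 2, so it was the only one of the 4 under 1 TPM in a library. Its counts were 108 in replicate 1 and 40 in replicate 2. Of the 3 constitutive cutting subunits, Psmb5 and Psmb6 were lower than most of the core and Psmb7 lay among the other core genes. Psmb5 had 0.98 TPM in replicate 1 and 1.61 TPM in replicate 2, Psmb6 had 0.96 and 1.35 TPM, and Psmb7 had 1.77 and 3.50 TPM. The class median was 0.98 TPM in replicate 1 and 1.61 TPM in replicate 2, against 2.47 and 3.08 TPM for the alpha ring. Psmb11, the form of thymic epithelium, had 0 counts in both libraries, again with an interval up to 3.69 counts in each.

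**Figure D2:**
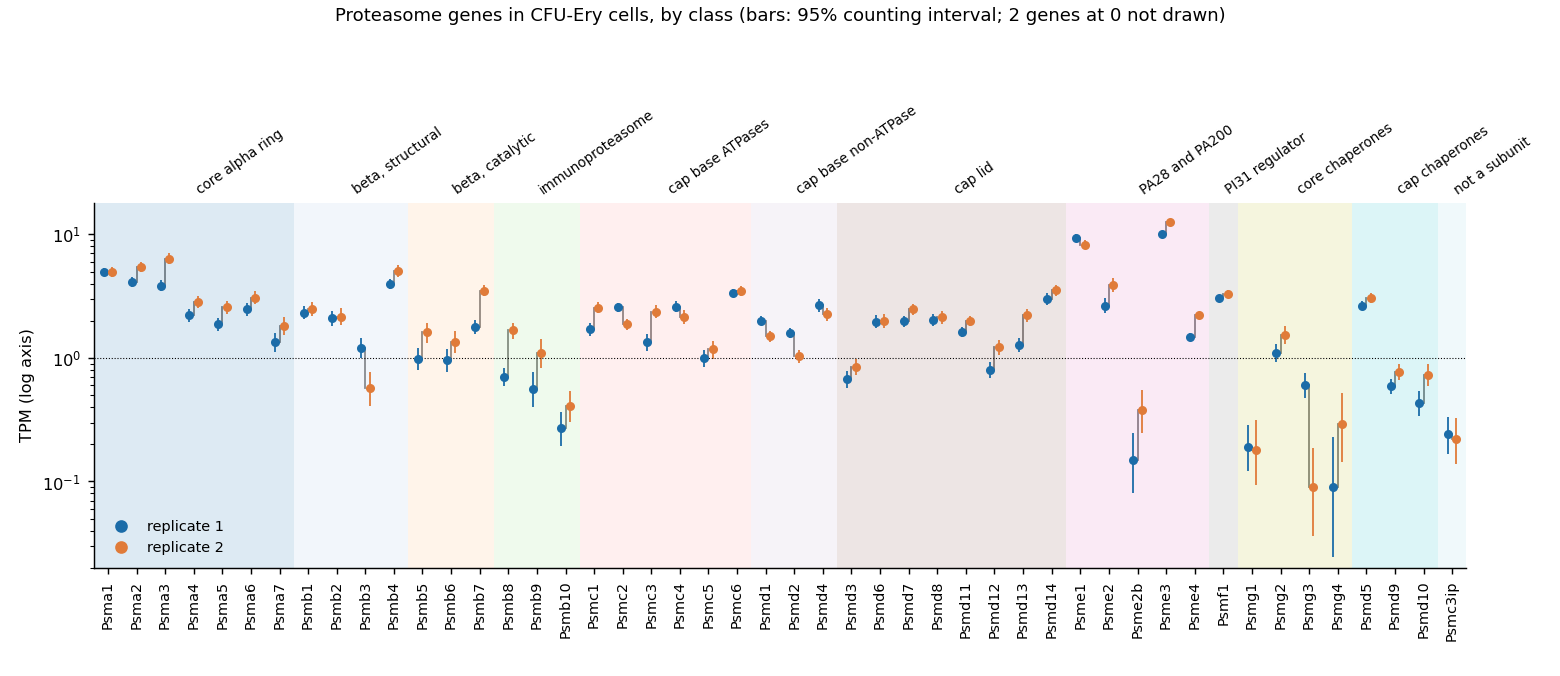
Deposited TPM (log axis) of the proteasome genes in replicate 1 (blue) and replicate 2 (orange), grouped by class, with bars for the exact 95% Poisson interval of the count and a dotted line at 1 TPM. Psma8 and Psmb11, at 0 in both libraries, are not drawn. Most core and cap genes lie between 1 and 6 TPM, Psme1 and Psme3 above, and the chaperone genes other than Psmd5 and Psmg2 below 1 TPM.

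Immunoproteasome genes were expressed below or near their constitutive partners. Psmb8 (ENSMUSG00000024338.10, chromosome 17, 34197721 to 34201454, GRCm38), the immuno form of the beta-5 subunit, had 0.70 TPM in replicate 1 and 1.67 TPM in replicate 2, against 0.98 and 1.61 TPM for Psmb5. The log2 ratio of TPM was -0.49 in replicate 1 (95% counting interval -0.87 to -0.09) and 0.05 in replicate 2 (-0.28 to 0.40), so the 2 libraries lay on opposite sides of equality. The ratio depended on the transcript length used, since Psmb8 had more counts, 139 and 180, than Psmb5, 95 and 121 in replicates 1 and 2, and in counts without length scaling the log2 ratio was 0.55 in replicate 1 and 0.57 in replicate 2. The leading transcript of Psmb8 also differed between the libraries, Psmb8-201 with 100% of the gene in replicate 1 and Psmb8-203 with 54.9% in replicate 2; its part in the ratio of TPM was not tested. Psmb9, the immuno form of the beta-1 subunit, had 0.56 TPM in replicate 1 and 1.09 TPM in replicate 2, against 0.96 and 1.35 TPM for Psmb6, with log2 ratios of -0.78 (-1.36 to -0.22) and -0.31 (-0.81 to 0.18). Its annotation overlaps the antigen transporter gene Tap1 by 212 bases on the other strand, and the use of strand is not given in the sources used here. Psmb10 (ENSMUSG00000031897.8, chromosome 8, 105935735 to 105938444), the immuno form of the beta-2 subunit, was furthest below its partner, with 0.27 TPM in replicate 1 and 0.41 TPM in replicate 2, against 1.77 and 3.50 TPM for Psmb7. Its log2 ratio was -2.71 (-3.23 to -2.23) in replicate 1 and -3.09 (-3.56 to -2.66) in replicate 2, and the intervals of the 2 libraries overlapped. The 3 immuno genes summed to 1.53 TPM in replicate 1 and 3.17 TPM in replicate 2, against 3.71 and 6.46 TPM for the 3 constitutive genes, an immuno share of 29.2% in replicate 1 and 32.9% in replicate 2 (31.1% ± 2.63, SD, n = 2). All 3 immuno genes had higher TPM in replicate 2, and so did the 3 constitutive genes. Summed markers of every listed cell type were higher there too on this deposited scale, on which equal rescaled levels stand higher in replicate 2. Granulocyte and monocyte markers had 607 TPM in replicate 1 and 814 TPM in replicate 2, and erythroid markers 388 and 447 TPM. Single markers went the other way, among them Mpo, Prtn3, Csf3r and Spi1 of the granulocyte and monocyte list and Gata1 of the erythroid list. Rescaled, the median erythroid marker was lower in replicate 2 (1416 in replicate 1 and 1307 in replicate 2). So were the medians of granulocyte and monocyte (1015 and 942) and B lymphoid markers (24.6 and 20.4). Those of macrophage (67.1 and 69.2) and T and NK markers (7.33 and 8.51) were higher. Rescaled class medians of the immuno (24.2 and 40.3) and constitutive cutting genes (42.3 and 59.6) were also higher in replicate 2. The part of granulocytes, monocytes or other cells in the immuno values was not tested.

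**Figure D3:**
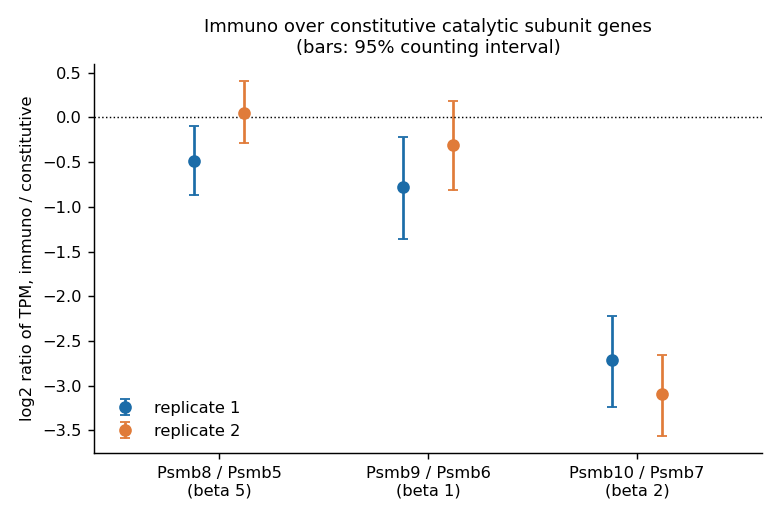
Log2 ratio of TPM of each immuno subunit gene over its constitutive partner, in replicate 1 (blue) and replicate 2 (orange), with 95% counting intervals; the dotted line marks equal levels. Psmb10 over Psmb7 lies near -3 in both libraries, and the other pairs lie closer to equality.

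Other genes of MHC class I presentation and interferon response were read beside the immuno genes. Of 10 such genes, 5 reached 1 TPM in both libraries. B2m, the light chain of MHC class I, was at 52.9 ± 3.22 TPM, and the heavy chain genes H2-K1 and H2-D1 were at 4.22 ± 0.594 and 3.94 ± 0.205 TPM. The lowest of the list was Nlrc5, the activator of MHC class I genes, at 0.11 ± 0.0283 TPM. Tap1, which pumps peptides into the endoplasmic reticulum, had 0.49 TPM in replicate 1 and 0.35 TPM in replicate 2, and its direction between the libraries was opposite to that of Psmb8 and Psmb9. Psmb8 and Psmb9 lie 9956 bases apart on chromosome 17, with Tap1 between them. On chromosome 14, Psme1 and Psme2 lie 5911 bases apart with Emc9 between them, and Psmb5 and Psmb11 lie 3410 bases apart with no annotated protein-coding gene between.

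The ATPase genes Psmc1 to Psmc6, which encode the unfolding ring of the cap, had a class median of 2.13 TPM in replicate 1 and 2.26 TPM in replicate 2. Psmc6 was highest, with 3.34 and 3.48 TPM, and Psmc5 lowest, with 0.99 and 1.17 TPM. Psmc1 and Psmc4 had means of 2.13 and 2.37 TPM. Psmc2 had 2.56 TPM in replicate 1 and 1.87 TPM in replicate 2, while Psmc3 had 1.34 and 2.37 TPM, so these 2 genes of the ring stood in opposite order in the 2 libraries. The large scaffold genes Psmd1 and Psmd2 had 2.00 and 1.59 TPM in replicate 1 and 1.5 and 1.03 TPM in replicate 2, and Psmd4, a ubiquitin receptor, had 2.67 and 2.26 TPM. Of the lid genes, Psmd14, which encodes the enzyme that cuts ubiquitin off the substrate, was highest, with 3.00 TPM in replicate 1 and 3.53 TPM in replicate 2. Psmd7, the partner it pairs with, had 1.98 and 2.47 TPM. This order turned in coding transcripts alone, where Psmd14 had 1.38 and 1.90 TPM and Psmd7 again 1.98 and 2.47 TPM. It also turned in counts, 350 and 349 for Psmd14 against 383 and 373 for Psmd7. Psmd3, a lid scaffold subunit, was lowest, with 0.67 and 0.84 TPM, and Psmd12 had 0.80 and 1.22 TPM. The other 4 lid genes, Psmd6, Psmd8, Psmd11 and Psmd13, had means of 1.75 to 2.09 TPM.

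Cap and core genes had similar levels overall. The cap genes (17 genes) had a median of 1.96 TPM in replicate 1 and 2.13 TPM in replicate 2, against 2.15 and 2.71 TPM for the core genes (14 constitutive genes), a log2 ratio of -0.13 and -0.34. Of the 31 core and cap genes 25 reached 1 TPM in both libraries. Their highest and lowest means were 6.77-fold apart. Across the genes, log2 TPM had an SD of 0.72 in replicate 1 and 0.78 in replicate 2, beside 0.80 and 0.81 for the 76 cytosolic ribosomal protein genes with a count and 1.69 and 1.80 for the 31 UBE2 genes with a count. The core and cap genes were thus about as far apart in level as ribosomal protein genes and less so than UBE2 genes; no test was made. As a description, log2 TPM of the 31 core and cap genes gave a Pearson correlation of 0.818 and a Spearman correlation of 0.773 between the libraries. The Pearson correlation was higher for the 76 ribosomal protein genes (0.957) and the 31 UBE2 genes (0.973).

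Activator genes included the highest levels of the set. Psme3 (ENSMUSG00000078652.5, chromosome 11, 101316213 to 101323537, GRCm38) encodes PA28 gamma, a nuclear activator, and had 10.1 TPM in replicate 1 and 12.6 TPM in replicate 2, with 3226 and 3149 counts, the most of any member. Psme1, which encodes PA28 alpha, had 9.32 and 8.25 TPM, and its partner Psme2, PA28 beta, 2.65 and 3.90 TPM. The log2 ratio of Psme1 over Psme2 was 1.81 in replicate 1 (1.58 to 2.05) and 1.08 in replicate 2 (0.85 to 1.31), so Psme1 was above Psme2 in both. Psme4, which encodes PA200, a nuclear activator, had 1.49 and 2.21 TPM. Psmf1, which encodes PI31, a regulator first described as an inhibitor, had 3.03 TPM in replicate 1 and 3.31 TPM in replicate 2. Psme2b, annotated as a retrogene copy of Psme2, had 0.15 and 0.38 TPM. Because 79.5% of its 25-mers are also in Psme2 and the expected counts of both were fractional and summed to whole numbers, 222 in replicate 1 and 264 in replicate 2 (within 0.01 counts), reads had been divided between the pair and the level of Psme2b is uncertain.

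The assembly factor genes covered by the naming rule had a lower median than those of the core and cap. Pomp, a core chaperone outside the rule, is given below with the other partners. The 7 chaperone genes had a median of 0.59 TPM in replicate 1 and 0.73 TPM in replicate 2, against 2.15 and 2.71 TPM for the core, log2 ratios of -1.87 and -1.89. Of the core chaperones, Psmg2 had 1.10 and 1.54 TPM, and Psmg1 had 0.19 and 0.18 TPM. Psmg3 (ENSMUSG00000029551.9, chromosome 5, 139823592 to 139826885) had 0.60 TPM in replicate 1 and 0.09 TPM in replicate 2 on 77 and 7 counts. Psmg4 had 0.09 and 0.29 TPM on 4 and 11 counts, too few to place it. The cap chaperone Psmd5 had 2.64 and 3.05 TPM and stood above most cap subunits, while Psmd9 had 0.59 and 0.77 TPM and Psmd10, also called gankyrin, had 0.43 and 0.73 TPM. Psmc3ip, no proteasome gene, had 0.24 TPM in replicate 1 and 0.22 TPM in replicate 2.

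Partners that are not covered by the naming rule were mostly at similar levels. Of 11 such genes 8 reached 1 TPM in both libraries; Paaf1 was not analysed here. Usp14, a deubiquitinase of the cap, was highest, with 5.08 TPM in replicate 1 and 5.38 TPM in replicate 2. Akirin2, which brings proteasomes into the nucleus, had 2.14 and 3.19 TPM, Txnl1, a thioredoxin-like cap protein, 1.95 and 2.35 TPM, and Pomp, the chaperone that matures the core, 1.87 and 2.08 TPM. Zfand5, an activator, had 1.69 and 1.83 TPM, and Uchl5, the other cap deubiquitinase, and Adrm1, its ubiquitin receptor, had 1.53 and 1.60 TPM in replicate 1 and 1.40 and 1.31 TPM in replicate 2. Ecpas, a scaffold, had 1.28 and 1.46 TPM. Sem1, the smallest lid subunit, had 0.45 and 1.39 TPM, Ube3c, a ubiquitin ligase, 0.61 and 0.59 TPM, and Zfand2a, an arsenite-inducible factor, 0.22 and 0.20 TPM.

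The genes supplying ubiquitin were more abundant: 5 of 6 reached 1 TPM in both libraries. Ubb, which encodes a chain of ubiquitins, had 19.3 ± 3.03 TPM, and Rps27a, which encodes ubiquitin fused to a ribosomal protein, had 14.4 ± 0.106 TPM. Uba6, an activating enzyme, had 0.32 ± 0.0495 TPM. Of 8 genes for shuttles and the VCP unfoldase 3 reached 1 TPM in both libraries, among them the unfoldase gene Vcp at 1.84 ± 0.297 TPM and Ufd1, its cofactor, at 1.73 ± 0.509 TPM, and Ubqln4 was lowest at 0.24 TPM. Among the genes listed for proteasome regulation, Nfe2, an erythroid transcription factor, was highest, with 10.5 TPM in replicate 1 and 10.2 TPM in replicate 2. A role of Nfe2 itself in regulating proteasome genes was not tested. Its relatives Nfe2l2 and Nfe2l1, of which Nfe2l1 raises proteasome genes when proteasomes are blocked, had 2.36 and 0.81 TPM in replicate 1 and 2.32 and 0.96 TPM in replicate 2. Ngly1 and Ddi2, which process Nfe2l1, had 0.59 and 0.71 TPM in replicate 1 and 0.89 and 0.63 TPM in replicate 2. The subunits of the CCAAT-binding factor, Nfya, Nfyb and Nfyc, had 3.37, 1.57 and 2.08 TPM in replicate 1 and 3.70, 0.99 and 2.15 TPM in replicate 2.

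The promoters of the members were read for the binding motifs of these regulators. RefSeq windows of 250 bases before to 50 bases after a start site (GRCm38.p6) were found for 42 of the 50 genes. TGACNNNGC, the core of the antioxidant response element that Nfe2l1 and Nfe2l2 bind, was searched on both strands and occurred in 6 of the 42 genes (14.3%) and in 14.0% of 27025 genes. CCAAT, searched likewise, occurred in 15 of 42 genes (35.7%) and in 41.1% of all genes. Shares of the members were near those of all genes. Of the 7 alpha subunit genes 5 held CCAAT. Both constitutive catalytic genes with a window, Psmb5 and Psmb6, held TGACNNNGC, while the immuno forms Psmb8, Psmb9 and Psmb10 had a window without it. A match is a description of letters, not of binding. The 6 TGACNNNGC matches are shown 5′ to 3′ on the strand of the gene, with the motif in capitals (as its reverse complement where it lies on the other strand), followed by the nearest CCAAT to the start of Psma2, Psma7 and Psmb3.
Psmb5, chr14:54618026-54618050 (-): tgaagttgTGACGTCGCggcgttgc
Psmb6, chr11:70525340-70525364 (+): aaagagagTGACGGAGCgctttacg
Psmc6, chr14:45329589-45329613 (+): agccagtaGCTAAGTCAggcattgc
Psmd12, chr11:107479278-107479297 (+): tctGCTGTGTCAcatttgcc
Psmd9, chr5:123228151-123228175 (+): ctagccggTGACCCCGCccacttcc
Psme4, chr11:30771760-30771784 (+): ctgcggctGCAGCGTCAccagaaga
Psma2, chr13:14613180-14613200 (+): actctcctCCAATcagagcaa
Psma7, chr2:180042648-180042668 (-): gcctgtcgCCAATgcgcgctc
Psmb3, chr11:97703383-97703403 (+): cccgccagCCAATggggagga
The Psmd12 match is cut at the edge of its window. The genes with a TGACNNNGC match had a median of 0.97 TPM in replicate 1 and 1.48 TPM in replicate 2, and those without one 1.92 and 2.06 TPM. The genes with a CCAAT match had a median of 2.47 and 2.26 TPM, and those without one 1.59 and 1.98 TPM, so the 2 splits went opposite ways; neither was tested.

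Most members were within 2-fold between the 2 libraries. Counts were compared as log2 of replicate 1 over replicate 2 after TMM scaling in edgeR, for the 9820 genes averaging at least 20 expected counts, among them 46 members. Of the 46 members 3 were over 2-fold apart, against 18.5% of all genes tested. Psmg3 (log2 ratio 3.17, 95% counting interval 2.14 to 4.61) and Psmb3 (1.21, 0.69 to 1.78) were higher in replicate 1, where 9.64% of all genes were over 2-fold higher, and Psme2b (-1.12, -2.20 to -0.18) was higher in replicate 2, where 8.86% were. All 3 had mean counts under 100, in which range 3 of 8 members and 35.6% of genes were over 2-fold apart. At 100 to 1000 counts the median absolute log2 ratio was 0.26 for members and 0.30 for all genes. The counting interval left out equality for 25 of the 46 members, against 57.9% of all genes. Among members within 2-fold, Psmd2 (0.69), Psmc2 (0.64) and Psmd1 (0.57) were furthest towards replicate 1, and Psmc3 (-0.93), Psmb7 (-0.83) and Psmb9 (-0.71) furthest towards replicate 2. The members' median was -0.21, with 17 higher in replicate 1 and 29 in replicate 2, while the median over all genes was 0.00. All 6 cutting beta genes, immuno and constitutive, were on the side of replicate 2 (-0.83 to -0.32).

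**Figure D4:**
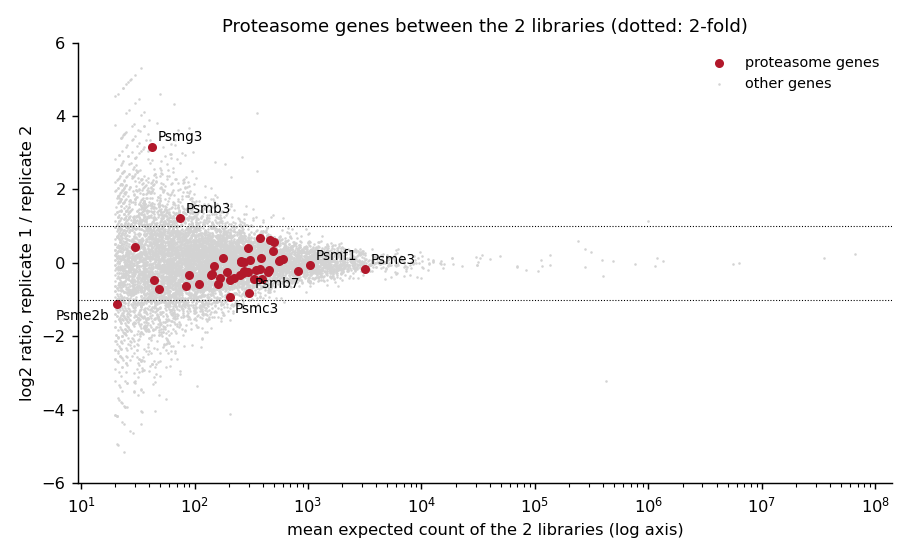
Log2 ratio of replicate 1 over replicate 2 after TMM scaling against the mean expected count (log axis), for 46 proteasome genes (red) and the other genes tested (grey), with dotted lines at 2-fold. Psmg3, Psmb3 and Psme2b lie beyond the lines, all at low counts, and Psme3 and Psmf1 lie near 0.

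Gene-level TPM sums all annotated transcripts, and for several members much of it came from transcripts not annotated protein_coding. Of the 37 members with several transcripts and at least 20 counts, 29 (78.4%) had the same leading transcript in both libraries, against 66.6% of 6733 genes. For Psma3 the leading transcript was Psma3-207, annotated for nonsense-mediated decay, at 40.0% of the gene in replicate 1 and 48.9% in replicate 2. Psme1-209, of the same type, led Psme1 with 55.8% and 34.6%. Retained-intron transcripts led Psmf1 (Psmf1-203, 46.8% in replicate 1 and 59.2% in replicate 2) and Psme2 (Psme2-207, 45.1% and 31.8%), and Psmc3-206, a processed transcript, led Psmc3 with 53.4% and 37.4%. Coding transcripts led Psmb4 (Psmb4-201, 59.3% and 45.5%) and Psmc4 (Psmc4-201, 53.9% and 56.8%), each with retained introns beside them. The leading transcript differed between the libraries for the other 8 of the 37, Psmb8, Psmc3ip, Psmd10, Psmd13, Psmg3, Psmd14 (Psmd14-202, a processed transcript, 49.6% in replicate 1, and Psmd14-201, coding, 53.8% in replicate 2), Psmd4 (Psmd4-206, 49.1%, and Psmd4-202, 38.7%) and Psma6. Psma6-202, of the nonsense-mediated decay type, held 77.5% in replicate 1 and Psma6-201, coding, 64.3% in replicate 2. Psme3 by contrast lay 94.4% and 94.5% in 1 coding transcript. In coding transcripts alone Psme3 was still the highest member, at 10.8 ± 1.70 TPM, while Psme1 was at 3.52 ± 1.32 TPM, Psma3 at 1.98 ± 0.148 TPM and Psmf1 at 1.15 ± 0.141 TPM. Short transcripts raise TPM, and total RNA holds unspliced RNA; their part in these shares was not tested. Over the 46 members with at least 20 mean counts, the share in transcripts not annotated protein_coding had a median of 6.47% in replicate 1 and 6.29% in replicate 2. Its mean was 17.8% and 16.4%. For all nuclear protein-coding genes of that count the median was 0 in both libraries and the mean 18.3% and 17.9%.

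**Figure D5:**
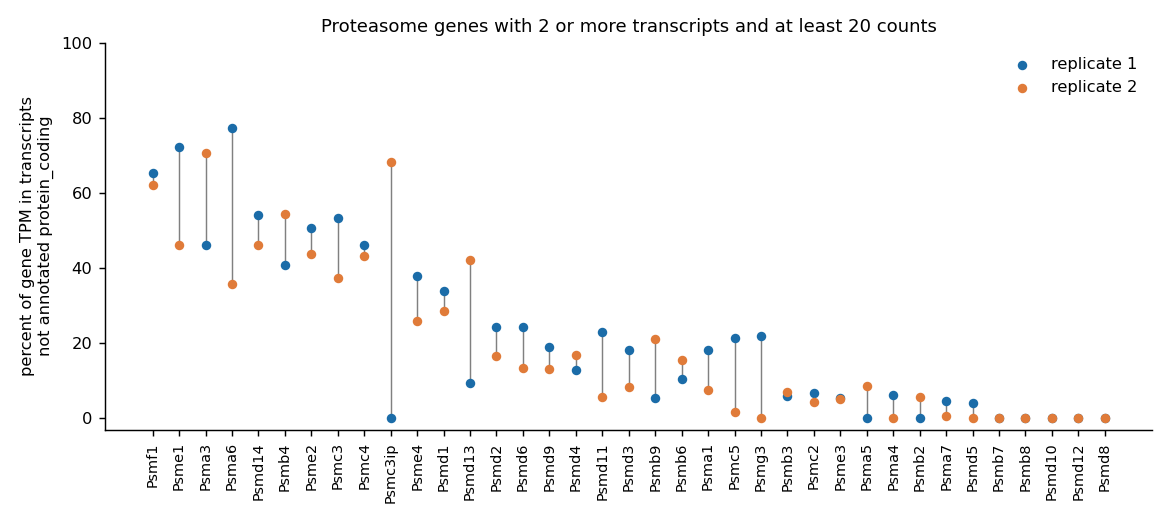
Percent of each gene's TPM in transcripts not annotated protein_coding, in replicate 1 (blue) and replicate 2 (orange), for the 37 members with 2 or more transcripts and at least 20 mean counts, in order of the mean. Psmf1, Psme1, Psma3 and Psma6 have the highest means, and Psmd8 and other genes at the right have none.

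Reads from near-identical copies limit a few values. Of the 50 members 41 share some 25-mers with another annotated gene, 18 share over 10% and 3 over 50%, and 11 had fractional counts. The 3 over 50% were Psme2b (82.2%), Psmb5 (76.7%) and Psma5 (64.5%). Not every fractional count need come from a copy. Psmc3ip was fractional in replicate 2 (23.06), where Mlx, which overlaps it on the other strand, had 103.94 counts. The Psmb5 count was fractional in replicate 2 (121.45), where Mir686, which overlaps it on the same strand, had 2.55 counts. The shared 25-mers of Psmb5 are a limit on the ratio of Psmb8 to Psmb5. The counts of Psma3, Psma4, Psmc1 and Psmd2 with a pseudogene each (Gm13835, Gm6542, Gm9575 and Gm5422) summed to whole numbers in both libraries, so reads were divided between them. The pseudogene counts were 99.0 and 95.7 for Gm13835 and 31.1 and 10.0 for Gm6542 in replicates 1 and 2, and at most 5.04 for the other two. Some members overlap another gene, among them Psma2 with AW209491 on the same strand (36 and 3 counts) and Psmc3 with Slc39a13 on the other strand (12 and 51 counts in replicates 1 and 2), and reads in the overlap cannot be told apart without strand or a unique exon. The 4 pseudogenes named after Psmb genes had 0 counts in both libraries.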

How the data were processed

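Total RNA of 2 CFU-Ery libraries was analysed, in 1 group. The deposited gene and transcript tables hold expected counts, TPM and isoform percent per library, per the file headers, quantified on mm10 with GENCODE M4, per the deposited description of the files. No source used here names the aligner, the quantification tool, their versions or the use of strand. The authors' posterior mean TPM served as an alternative. The deposited isoform percent gives each transcript's part of its gene's TPM.

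Names, types and coordinates (1-based, GRCm38) came from GENCODE M21 by Ensembl identifier; of 43346 Ensembl rows 42462 matched. Members and lists were chosen with earlier results of these data known; every member is named, with the 3 highest and the lowest gene of most pathway lists, every partner and regulator, and the 2 highest of marker lists; others were named to complete a sentence, and some listed genes are not reported here. Expected counts were rounded for edgeR 4.0.16 (R 4.3.3), whose TMM factors scaled log2 of (expected count + 0.5), replicate 1 over replicate 2; genes past 2-fold were called. Intervals are 95% (exact Poisson or Clopper-Pearson) and cover counting error only, since reads are not independent molecules. Shared sequence was measured in 25-mers of GENCODE M21 transcripts. Alternatives were other scales, minima, folds, DESeq2 1.42.0 size factors and leaving out each library. Software also included matplotlib 3.10.9, scipy 1.17.1, pandas 2.3.3, numpy 2.4.6 and Python 3.11.15. Rows that name no gene held 0 and 8 counts.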

Additional observations from a re-analysis of the deposited data

How the results depend on the processing

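Levels depend on the scale: the members' median of 1.86 TPM became 74.0 rescaled to nuclear protein-coding genes and 1.44 in coding transcripts only, an alternative chosen after seeing the data. The log2 ratio of Psmb8 to Psmb5 (-0.22) was 0.053 without replicate 1 and -0.49 without replicate 2, and turned to 0.56 in expected counts without length scaling, where Psmb9 to Psmb6 (-0.54) was -0.91 and cap to core (-0.24) turned to 0.14; cap to core was -0.42 in coding transcripts. Assembly to core (-1.88) was -1.92 with posterior mean TPM, -1.83 with at least 20 counts, -1.65 in counts and -1.90 in coding transcripts. At a minimum of 5 TPM, 2 members were called (2.69% of all genes). Over 2-fold apart, the 3 members became 0 with log2(TPM + 1) (0.631% of genes) and 0 at 100 counts (5.48%); past 1.5-fold there were 9 (35.4%). For the main comparisons 51 of 66 alternatives stayed within 1 SD of the libraries or, for counts, within 1.5 times. Another 12 moved further and 3 reversed. With 2 libraries, a value without 1 of them always lies within 1 SD of their mean. For levels, shares and ratios that setting could thus stay or reverse but not move, so the tally overstates how stable they are. Members at 1 TPM or more ranged up to 48 on the rescaled scale and 41 at a minimum of 0.5 TPM. Counts differ from TPM by construction, as they are not divided by length; the cause of the other moves was not tested. Low counts limit Psmg1, Psmg4 and Psme2b. No paired analysis was possible because the design has 1 group.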
